A study of Rattus norvegicus with 8 samples.

Results

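The genes described here fold, process and crosslink collagen: P4hb, Ppib, Serpinh1, P4ha1, Plod1, Pcolce and Lox, 7 genes in all. Their transcripts were followed on 8 one-colour arrays of medial collateral ligament, the band on the inner side of the knee, from rats. Every probe set whose only gene symbol was one of these genes was taken, which gave 13 of the 8799 probe sets on the array. Of the 13, 9 were bright enough to be tested, among 5244 probe sets tested in all. Pcolce was 5.96-fold lower in loaded healing than in loaded control ligaments and 7.40-fold higher in unloaded than in loaded healing ligaments. A Ppib probe set was also lower in loaded healing, at the edge of the threshold. In unloaded against loaded controls a Lox probe set was 7.11-fold lower and the other Ppib probe set 5.98-fold lower. The other tested Lox probe sets were not called there, and the unloaded control arrays differed from all the rest. No call was made for P4hb or P4ha1, and Plod1 and Serpinh1 were too dim to test.

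The study crossed injury with weight bearing, and every ligament was taken at 3 weeks. Unloaded healing rats had both medial collateral ligaments disrupted and were tail-suspended from 24 h after surgery, so that the hindlimbs bore no weight. Loaded healing rats had the same disruption and were not suspended. Unloaded control rats were suspended without any surgery, while loaded control rats had a sham operation. Suspension and the lack of sham surgery therefore cannot be told apart between the control groups. Between unloaded healing and unloaded control, ligament disruption and surgery itself cannot be told apart either. Each group had 2 arrays. The labels give no strain, sex or age, and do not say whether the 2 arrays came from separate rats, so the errors and p-values measure only the spread between arrays. The comparison asks how unloading changes ligament healing, which is the subject of the series' title.

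Fibrillar collagen is made in the endoplasmic reticulum as procollagen, whose chains are modified, joined by disulfide bonds and wound into a triple helix. P4hb is protein disulfide isomerase and also the beta subunit of prolyl 4-hydroxylase, and P4ha1 is an alpha subunit of that enzyme, whose hydroxyproline keeps the helix stable at body temperature. Ppib, or cyclophilin B, turns proline bonds so that the helix can close, Serpinh1, or Hsp47, is the chaperone of the folded helix, and Plod1 hydroxylates the lysines later used in crosslinks. After secretion Pcolce enhances removal of the C-terminal propeptide, which lets fibrils form, and Lox, lysyl oxidase, starts the crosslinks that give ligament its strength.

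The promoters of Pcolce and Ppib are shown because these genes were called lower in loaded healing, and that of Serpinh1 because its group means fell in the order seen on the called Ppib probe set. P4ha1, whose promoter is not shown, had that order too, with every group overlapping its neighbour. The sequences are RefSeq's on the GRCr8 build, from 250 bases before to 50 after the annotated start, and 6 of the 7 genes matched the promoter table by gene identifier. Capitals mark the GC box GGGCGG, the motif known as the CCAAT box, and the paired heat shock unit, which is GAA and then TTC after any 2 bases. All were read on both strands.
Pcolce promoter, chr12:24720722-24721021, plus strand: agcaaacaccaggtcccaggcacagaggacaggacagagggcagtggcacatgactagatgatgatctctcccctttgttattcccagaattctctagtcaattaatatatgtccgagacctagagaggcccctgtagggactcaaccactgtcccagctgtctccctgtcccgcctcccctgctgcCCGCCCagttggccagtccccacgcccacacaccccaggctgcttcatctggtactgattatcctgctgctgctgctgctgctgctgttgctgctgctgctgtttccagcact
Ppib promoter, chr8:75498716-75499015, plus strand: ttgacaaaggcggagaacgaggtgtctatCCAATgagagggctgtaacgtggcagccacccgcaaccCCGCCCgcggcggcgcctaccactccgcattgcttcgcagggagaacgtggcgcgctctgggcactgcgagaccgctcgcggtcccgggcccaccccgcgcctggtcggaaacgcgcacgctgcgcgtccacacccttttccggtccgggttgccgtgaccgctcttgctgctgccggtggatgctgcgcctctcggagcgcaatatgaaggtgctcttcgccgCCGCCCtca
Serpinh1 promoter, chr1:163062927-163063226, minus strand: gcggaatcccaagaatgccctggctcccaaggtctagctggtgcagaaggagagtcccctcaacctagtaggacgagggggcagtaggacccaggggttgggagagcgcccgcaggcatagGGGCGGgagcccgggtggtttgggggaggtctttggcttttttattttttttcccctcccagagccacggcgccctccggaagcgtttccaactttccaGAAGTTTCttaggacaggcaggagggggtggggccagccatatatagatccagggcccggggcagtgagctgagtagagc
The GC box was found in all 6 member promoters, against 33.1% of 33469 promoters of the same length. In Pcolce it began at -63 from the start, in Serpinh1 at -129 and in Ppib at -183 and at 42. The CCAAT box was found in 2 of the 6, Ppib at -221 and P4hb at -144 and -33, against 37.5% of all promoters. The paired heat shock unit, which reads the same on both strands, was found in 3 of the 6, against 8.59% of all promoters: Serpinh1 at -30, Plod1 at -9 and P4hb at -217. The motif CCACG, a part of the ER stress element, was in 6 of 6, against 31.6%, and the whole element, where CCAAT is followed after a spacer of 9 bases by that motif, in 0 of 6, against 0.0657%. The hypoxia core ACGTG was in Ppib and P4ha1 (19.3% of all promoters), overlapping CCACG on the other strand at both Ppib sites, and the TATA box TATAAA in 0 of 6 (14.2%). Such matches are letters found in a window and were not tested for binding.

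Both arrays of the unloaded control group differed from the remaining 6. The summed signal of 13 probe sets for 6 ligament fibroblast markers (Col1a1, Col1a2, Comp, Dcn, Fmod and Thbs4; Tnmd, Scx and Mkx had no probe set named for them alone) was 59224 to 78137 in unloaded healing, 117899 to 140776 in loaded healing, 7595 to 8246 in unloaded controls and 110485 to 131981 in loaded controls. Their log2 signals correlated with those of other groups at 0.695 to 0.757, against 0.822 to 0.894 among the remaining 6 arrays (Pearson across probe sets, which share arrays). By these sums the markers of the labelled tissue were strong on the arrays of 3 groups and weak on the unloaded controls. A large part of the sum was Col1a1 probe set M27207mRNA_s_at, at 84665.6 and 73916.0 in loaded healing and 699.0 and 763.1 in unloaded controls. Not every marker had that order. Comp read 524.0 and 536.0 in unloaded healing, 223.2 and 360.8 in loaded healing, 137.3 and 302.1 in unloaded controls, and 1859.8 and 2505.5 in loaded controls. Comparisons among the other 3 groups were also fitted without these 2 arrays. The summed signal of 6 probe sets for 5 macrophage markers was 5467 to 6146 in unloaded healing, 19298 to 21081 in loaded healing, 4647 to 5037 in unloaded controls and 4922 to 5098 in loaded controls. For 10 skeletal muscle markers it was 11176 to 13792, 13376 to 18722, 5135 to 5507 and 10156 to 10316 in the same order of groups. Arrays with the same replicate number were partly alike among the 3 groups other than unloaded controls. Their deviations correlated at 0.16 to 0.20, against 0.0008 to 0.014 in pairs with unloaded controls. Loaded control 1 and unloaded healing 1 correlated at 0.894, above the 0.849 to 0.872 within groups. The main fit had no replicate term, and the cause was not tested.

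**Figure D1:**
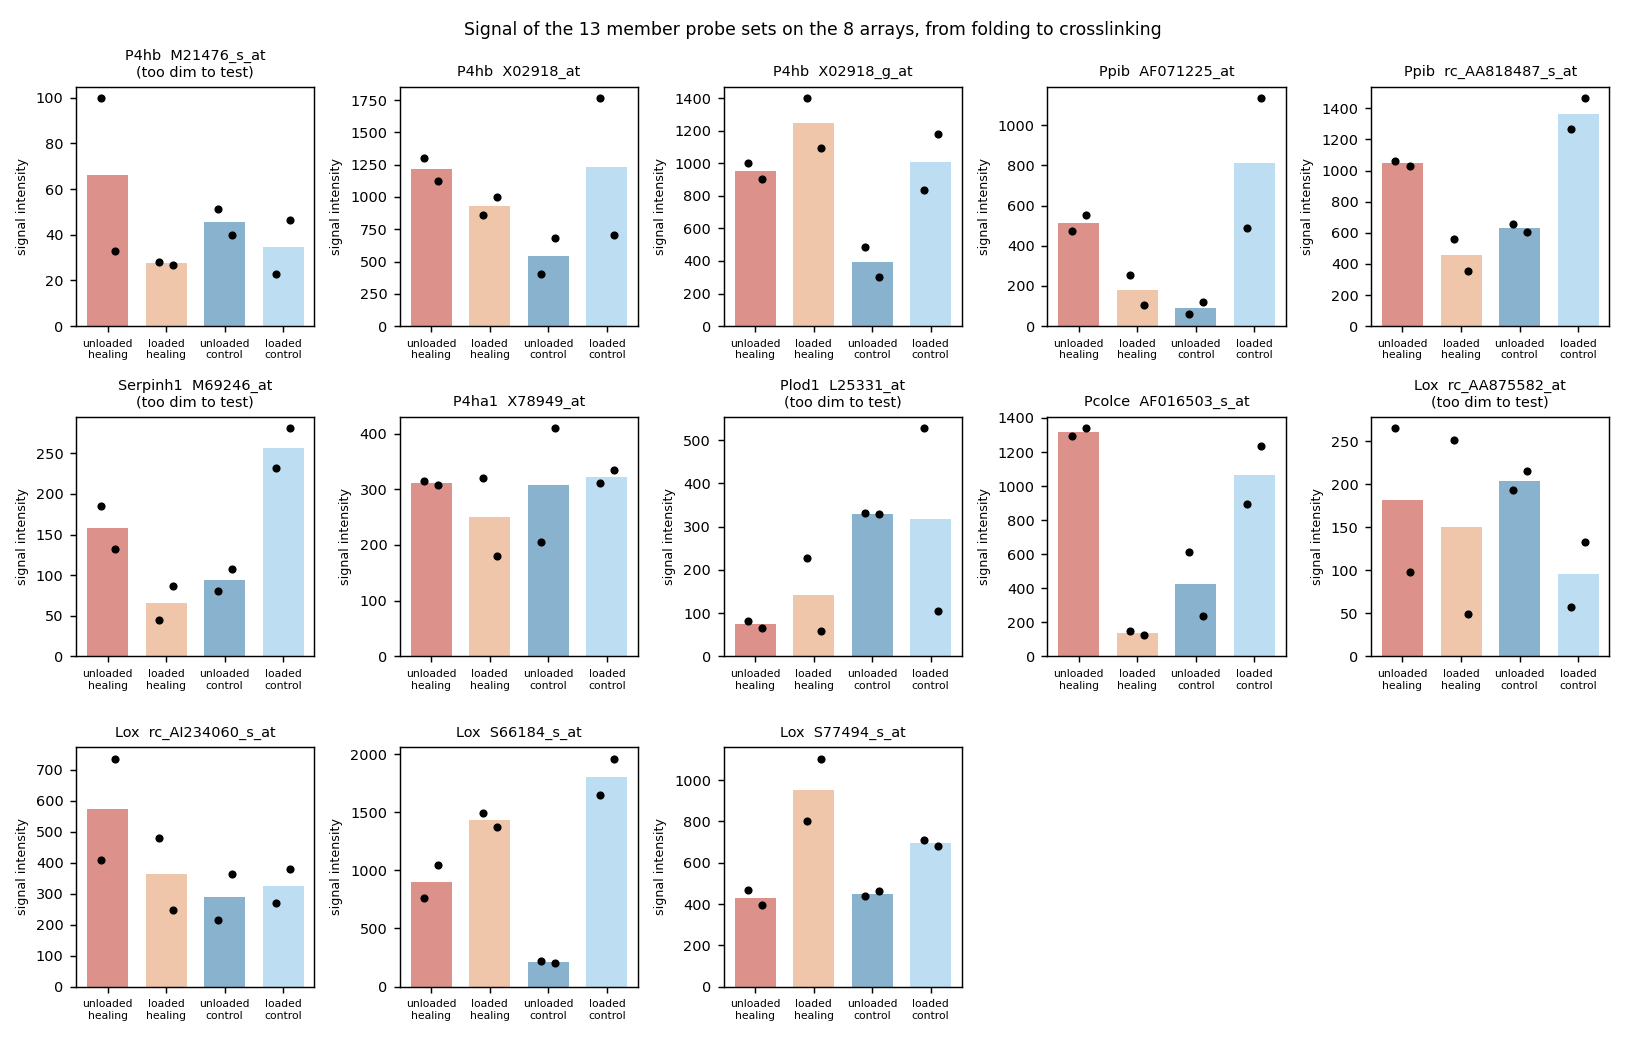
Signal intensity (linear axis from 0) of each of the 13 probe sets, with a bar for the mean of 2 arrays and a point for each array, in unloaded healing, loaded healing, unloaded control and loaded control ligaments. Pcolce read 126.3 and 151.1 in loaded healing, below all 6 other arrays.

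Fold changes below are differences of log2(signal + 45.8), given with their standard error (SE) and n = 2 arrays per group. The added offset of 45.8, the 10th percentile of all signals, shrinks the change of dim probe sets. Calls are those with a limma p-value below 0.05 after Benjamini-Hochberg adjustment over all 5244 probe sets. Signals of different probe sets are not compared, since each has its own affinity.

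P4hb, the disulfide isomerase and hydroxylase subunit, showed no call in any comparison. Probe set X02918_at read 1302.2 and 1124.0 in unloaded healing, 858.6 and 996.2 in loaded healing, 403.7 and 683.9 in unloaded controls, and 1763.9 and 703.0 in loaded controls. The loaded control arrays spanned the range of both healing groups. Probe set X02918_g_at, named after the same source sequence, read 998.4 and 900.7 in unloaded healing, 1398.4 and 1091.3 in loaded healing, 483.8 and 299.3 in unloaded controls, and 836.0 and 1177.2 in loaded controls. On both, unloaded controls lay lowest and did not overlap any other group. For loaded healing against loaded control the log2 difference was -0.26 ± 0.43 on the first and 0.30 ± 0.35 on the second (adjusted p = 0.908 and 0.860, limma). The 95% intervals ran from -1.23 to 0.71 and from -0.48 to 1.08, so a change of about 1 log2 unit lay inside or near them. For unloaded against loaded controls the differences were -1.02 ± 0.43 and -1.28 ± 0.35 (adjusted p = 0.254 and 0.0622). The last of these passed with quantile normalization, median centring and the stricter filter (adjusted p = 0.0250, 0.0314 and 0.0429). For unloaded healing against unloaded control the g_at probe set read 1.22 ± 0.35 (adjusted p = 0.0691), which also passed under those 3 settings (0.0305, 0.0437 and 0.0484). The remaining P4hb probe set, M21476_s_at, ranged from 22.7 to 99.7 over the 8 arrays and was too dim to test.

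Ppib, the proline isomerase of the endoplasmic reticulum, was lower in loaded healing than in loaded controls. Probe set rc_AA818487_s_at read 1061.7 and 1029.4 in unloaded healing, 562.8 and 352.4 in loaded healing, 654.9 and 604.1 in unloaded controls, and 1266.2 and 1464.7 in loaded controls. No 2 groups overlapped on it, and their order from high to low was loaded control, unloaded healing, unloaded control and loaded healing. It fell 2.86-fold in loaded healing against loaded control (log2 -1.52 ± 0.33, limma adjusted p = 0.0499). That p lay just under the threshold. It was not called without any 1 of the 8 arrays (adjusted p = 0.0732 to 0.261), without both unloaded controls (0.0591), with quantile normalization (0.0735), median centring (0.0931), spike-in scaling (0.209), no offset (0.0563), no filter (0.0837) or no intensity trend in the variance (0.133).

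The other Ppib probe set, AF071225_at, read 473.0 and 554.6 in unloaded healing, 255.2 and 106.8 in loaded healing, 61.6 and 118.0 in unloaded controls, and 487.1 and 1134.1 in loaded controls. Both healing groups were separate from each other, while loaded controls overlapped unloaded healing and unloaded controls overlapped loaded healing. For loaded healing against loaded control the log2 difference was -1.89 ± 0.59 (adjusted p = 0.193), in the same direction as on the first probe set but not called. Between unloaded and loaded healing the log2 differences were 1.38 ± 0.59 on AF071225_at and 1.15 ± 0.33 on rc_AA818487_s_at (limma adjusted p = 0.427 and 0.160), and neither passed. In unloaded controls, set against loaded ones, AF071225_at fell 5.98-fold (log2 -2.58 ± 0.59, adjusted p = 0.0257), and rc_AA818487_s_at read -1.06 ± 0.33 (adjusted p = 0.103). The call on AF071225_at was lost without loaded control 2 (adjusted p = 0.180), unloaded control 1 (0.166) or unloaded control 2 (0.0706). For unloaded healing against unloaded control AF071225_at read 2.07 ± 0.59 (adjusted p = 0.0685), which passed with quantile normalization (0.0331) and median centring (0.0396). That comparison gave 0.69 ± 0.33 on rc_AA818487_s_at (adjusted p = 0.287).

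Serpinh1, the collagen chaperone, had 1 probe set, M69246_at, whose mean lay below the brightness filter. It read 184.8 and 131.8 in unloaded healing, 44.8 and 86.2 in loaded healing, 80.4 and 107.7 in unloaded controls, and 232.6 and 280.7 in loaded controls. Loaded controls were highest and unloaded healing next, without overlap, and loaded healing overlapped unloaded controls. That order of group means was the one seen on the Ppib probe set rc_AA818487_s_at. With the filter removed, the log2 difference was -1.46 ± 0.47 for loaded healing against loaded control and 0.89 ± 0.47 for unloaded against loaded healing (limma adjusted p = 0.287 and 0.640), so neither passed.

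P4ha1, the catalytic subunit of prolyl 4-hydroxylase, had no call in any comparison. X78949_at gave 314.5 and 307.7 in unloaded healing, 320.9 and 180.2 in loaded healing, 205.5 and 409.1 in unloaded controls, and 310.6 and 334.8 in loaded controls. Each group overlapped its neighbour in the order of means. The log2 difference was -0.36 ± 0.52 for loaded healing against loaded control (95% interval -1.53 to 0.82, limma adjusted p = 0.890). It was 0.31 ± 0.52 for unloaded against loaded healing (-0.86 to 1.48, adjusted p = 0.892). Changes of up to about 1.5 log2 units therefore lie within these intervals.

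Plod1, the lysyl hydroxylase, had 1 dim probe set, L25331_at, which did not pass the filter. It read 81.9 and 65.4 in unloaded healing, 226.8 and 58.5 in loaded healing, 330.8 and 328.7 in unloaded controls, and 527.0 and 106.0 in loaded controls. The 2 loaded control arrays differed more than any 2 group means did. The unloaded healing arrays lay below both unloaded control arrays, and with the filter removed that log2 difference was -1.66 ± 0.73 (limma adjusted p = 0.337), which did not pass.

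Pcolce, the procollagen C-proteinase enhancer, showed the largest changes among healing groups in this set of genes. AF016503_s_at read 1295.2 and 1338.3 in unloaded healing, 151.1 and 126.3 in loaded healing, 614.1 and 236.1 in unloaded controls, and 892.8 and 1235.9 in loaded controls. No groups overlapped: unloaded healing was highest, loaded controls next, unloaded controls after them and loaded healing lowest. Its mean was 1317 ± 30.5 in unloaded healing, 138.7 ± 17.5 in loaded healing, 425.1 ± 267.3 in unloaded controls and 1064 ± 243 in loaded controls (SD, n = 2 each). For unloaded healing against unloaded control the log2 difference was 1.66 ± 0.46 (limma adjusted p = 0.0626), which passed with quantile normalization (0.0358), median centring (0.0360), the larger offset (0.0447), the stricter filter (0.0460) or without unloaded control 1 (2.27, 0.0262). Without unloaded control 2 it was 1.05 (adjusted p = 0.341).

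Pcolce fell in loaded healing against loaded control (log2 -2.57 ± 0.46, limma adjusted p = 0.0230), and ranked 15 from the lowest of 5244 probe sets. With unloading of healing ligaments it rose (2.89 ± 0.46 log2 units, adjusted p = 0.0148), at rank 5 from the highest. Both comparisons use the loaded healing arrays. Without the unloaded control arrays both calls were kept (adjusted p = 0.00927 and 0.00599). The calls were lost whenever an array of a compared group was left out. For injury that meant loaded healing 1 or 2 (adjusted p = 0.117 and 0.129) or loaded control 1 or 2 (0.0976 and 0.175), with log2 values between -2.80 and -2.35. For unloading it meant unloaded healing 1 or 2 (0.0726 and 0.106) or loaded healing 1 or 2 (0.103 and 0.0891), with log2 values between 2.79 and 2.98. Between unloaded healing and loaded control the difference was 0.31 ± 0.46 (95% interval -0.72 to 1.35, adjusted p = 0.998), so a change of up to 1.35 log2 units lies inside the interval.

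Array controls were low on the loaded healing arrays too. The actin 3' control probe set read 4786 and 5235 in unloaded healing, 1353 and 1597 in loaded healing, 1284 and 1494 in unloaded controls, and 4393 and 4955 in loaded controls. For GAPDH the 3' probe set gave 1948.0 and 1871.8 in unloaded healing, 1038.5 and 842.6 in loaded healing, 1885.6 and 2283.3 in unloaded controls, and 2277.5 and 2334.6 in loaded controls. GAPDH was lowest in loaded healing without overlap, while actin was low in loaded healing and in unloaded controls, which overlapped. Of 4 tested macrophage probe sets 2 rose in loaded healing against loaded control, Lyz2 (lysozyme, log2 3.09 ± 0.24) and Ctss (cathepsin S, 2.00 ± 0.27). The median was 0.95 over the 4 tested and -0.17 over all 6 of the list. Lyz2 and Ctss also fell in unloaded against loaded healing (-2.60 ± 0.24 and -1.43 ± 0.27). Of 13 ligament fibroblast probe sets 2 were called lower and 0 higher in loaded healing against loaded control. They were Comp (-2.74 ± 0.45) and Col1a1 Z78279_at (-1.41 ± 0.22). In that comparison 1.03% of all tested probe sets were called higher and 0.992% lower. In unloaded against loaded healing 2 of the 13 were called lower and 0 higher, against 0.858% lower and 0.763% higher of all tested. The part of these controls and markers in the Pcolce and Ppib differences was not tested. In whole tissue, fewer cells of a type and less RNA per cell cannot be told apart.

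**Figure D2:**
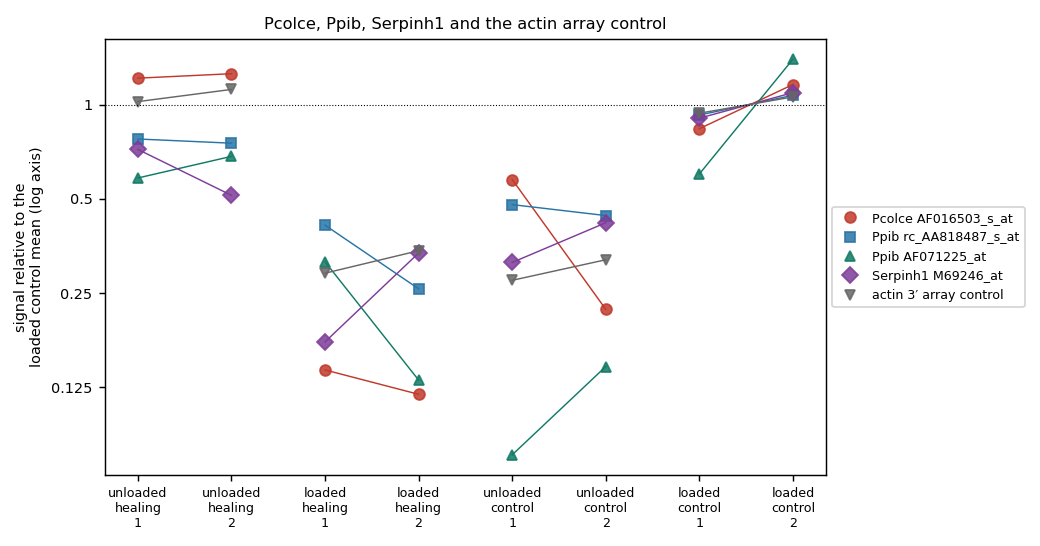
Signal of Pcolce, both Ppib probe sets, Serpinh1 and the actin 3' array control on each array, divided by the mean of the 2 loaded control arrays (log axis; lines join the 2 arrays of a group). All 5 lay below the loaded control mean on the 4 arrays of loaded healing and unloaded controls, and Pcolce and the actin control lay above it on both unloaded healing arrays.

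Lox, which oxidises collagen lysines for crosslinking, had 4 probe sets whose groups fell in different orders. S66184_s_at read 758.1 and 1045.1 in unloaded healing, 1497.3 and 1374.5 in loaded healing, 219.9 and 206.5 in unloaded controls, and 1644.6 and 1961.1 in loaded controls. No groups overlapped, and unloaded controls lay far below the rest. It fell 7.11-fold in unloaded against loaded controls (log2 -2.83 ± 0.31, limma adjusted p = 0.000127). In unloaded healing against unloaded control it rose 3.62-fold (log2 1.85 ± 0.31, adjusted p = 0.00307). Both calls were kept without each array in turn (adjusted p at most 0.00304 and 0.0314). They rest on the unloaded control arrays. There 12 of 13 probe sets for ligament fibroblast markers were also called lower than in loaded controls, against 6.22% of all tested. The part of that difference in the Lox result was not tested.

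S77494_s_at, another Lox probe set, read 466.2 and 393.0 in unloaded healing, 800.3 and 1104.4 in loaded healing, 439.1 and 462.8 in unloaded controls, and 712.0 and 682.7 in loaded controls. Loaded groups lay above unloaded ones without overlap. For unloaded against loaded healing the log2 difference was -1.06 ± 0.36 (adjusted p = 0.263), which did not pass, and for unloaded against loaded controls it was -0.58 ± 0.36 (adjusted p = 0.448). In unloaded healing against unloaded control it read -0.07 ± 0.36 (adjusted p = 0.948), where S66184_s_at was called higher. The probe set rc_AI234060_s_at read 408.0 and 734.9 in unloaded healing and 480.2 and 245.3 in loaded healing. In unloaded controls it read 213.1 and 364.2, and in loaded controls 269.9 and 380.2. Every group overlapped its neighbour in the order of means, and no comparison gave a call. For unloaded against loaded healing its log2 difference was 0.61 ± 0.53 (limma adjusted p = 0.761), and that of S66184_s_at was -0.66 ± 0.31 (0.493). The dim probe set rc_AA875582_at ranged from 48.8 to 264.9 and was not tested. For loaded healing against loaded control the 3 tested Lox probe sets read -0.32 ± 0.31, 0.41 ± 0.36 and 0.09 ± 0.53 (S66184_s_at, S77494_s_at and rc_AI234060_s_at, adjusted p = 0.818, 0.781 and 0.982).

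**Figure D3:**
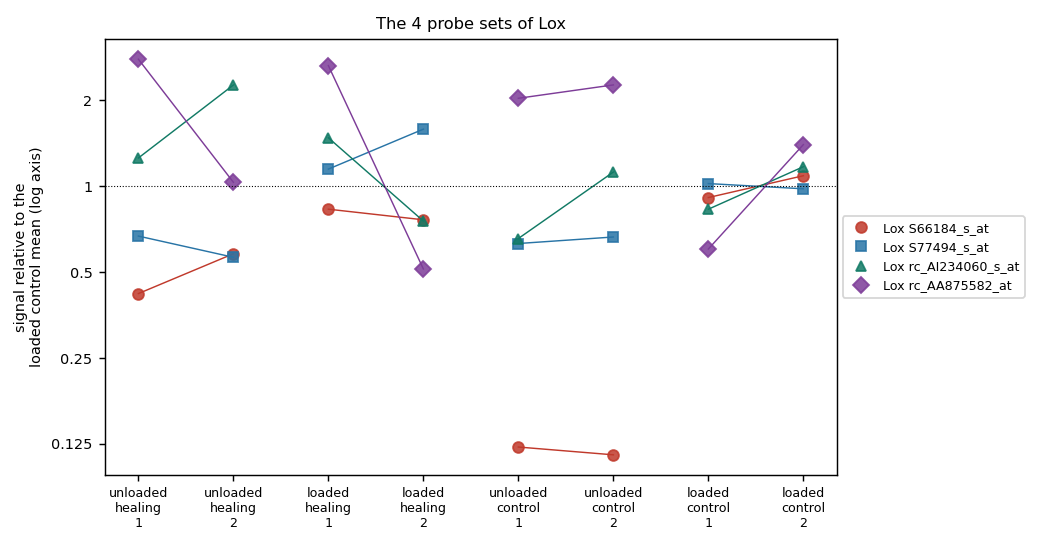
Signal of the 4 Lox probe sets on each array, divided by the mean of the 2 loaded control arrays (log axis; lines join the 2 arrays of a group). On unloaded controls S66184_s_at lay lowest, while rc_AA875582_at, at 193.3 and 215.3, lay above its loaded control mean.

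Counted together, 0 of the 9 tested probe sets were called higher and 2 lower in loaded healing against loaded control (Pcolce and Ppib), where 1.03% of all tested probe sets were called higher and 0.992% lower. The median log2 difference of the 13 was -0.32, against -0.03 over all tested. In unloaded against loaded healing 1 was called higher (Pcolce) and 0 lower, against 0.763% and 0.858% of all. The medians there were 0.37 and 0.06. In unloaded healing against loaded control limma called 0 of 9 in either direction, against 0.0572% higher and 0.0191% lower of all, and 1 of the 9 had an unadjusted p below 0.05. The medians were -0.06 for the 13 and 0.01 for all tested.

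In the comparisons that use the unloaded controls, 1 member probe set (Lox) was called higher and 0 lower in unloaded healing against unloaded control, where 6.41% of all were higher and 1.05% lower. The median of the 13 was 0.69 and that of all tested -0.23. Between unloaded and loaded controls 0 were higher and 2 lower (Ppib and Lox), against 0.591% and 6.22% of all. The median of the 13 was -1.02 there, while that of all tested probe sets was 0.23.

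**Figure D4:**
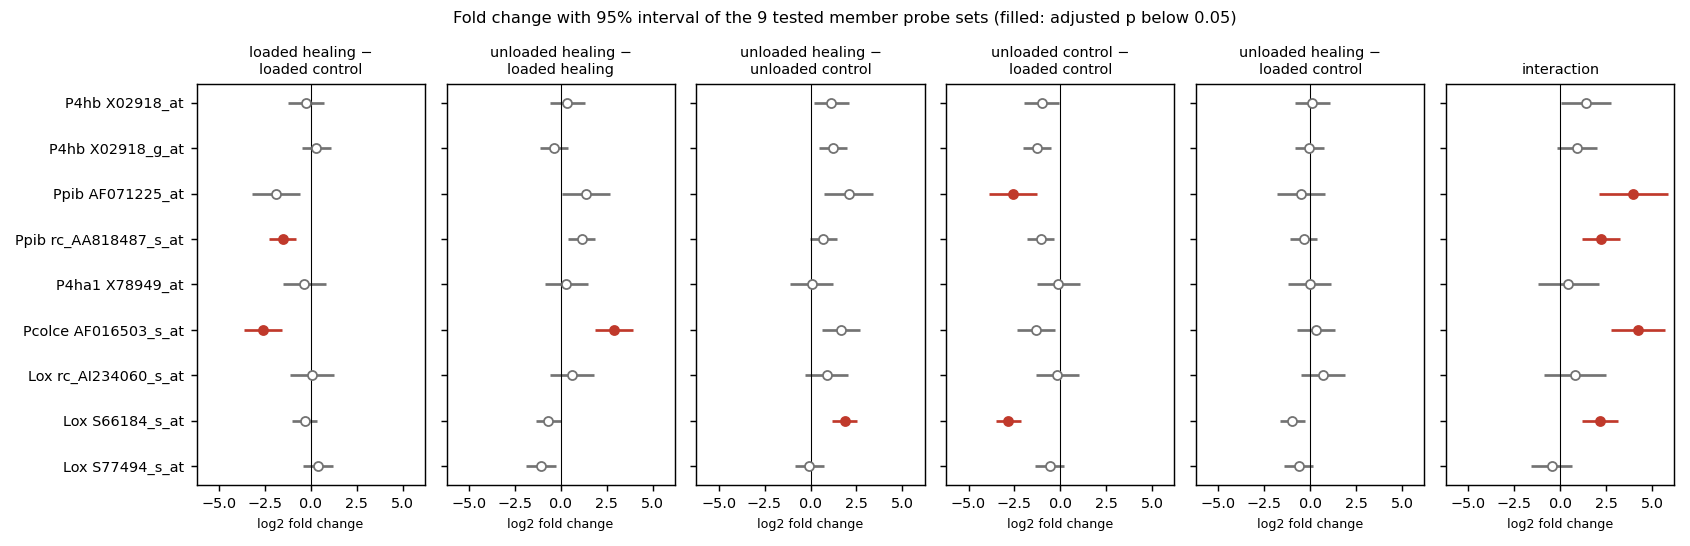
Log2 fold change (points) with its 95% interval (bars) of the 9 tested probe sets in each of 6 comparisons, with filled red points for an adjusted p below 0.05. Pcolce lies at -2.57 for loaded healing against loaded control and at 2.89 for unloaded against loaded healing, and Lox S66184_s_at at -2.83 for unloaded against loaded controls.

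The interaction compares the injury effect in unloaded rats with that in loaded rats. Only the loaded controls had a sham operation, so loading and sham surgery cannot be told apart in it. A positive value means a higher difference of healing against control in unloaded rats. Of the 9 probe sets 4 were called higher and 0 lower, where 4.52% of all were called higher and 0.324% lower. The median of the 13 was 0.91 and that of all tested -0.16. They were Pcolce (log2 4.23 ± 0.66, adjusted p = 0.00239), both Ppib probe sets (3.96 ± 0.84 on AF071225_at, adjusted p = 0.0193, and 2.21 ± 0.46 on rc_AA818487_s_at, adjusted p = 0.0187) and Lox S66184_s_at (2.17 ± 0.43, adjusted p = 0.0142). The other tested Lox probe sets read -0.48 ± 0.50 on S77494_s_at and 0.78 ± 0.75 on rc_AI234060_s_at (limma adjusted p = 0.782 and 0.761). For Pcolce and Ppib the 2 injury effects differed in direction: negative in loaded rats, and positive in unloaded rats, where none of the 3 probe sets passed. The Pcolce call was kept without each array in turn (adjusted p at most 0.0177). The Ppib and Lox calls were each lost without some arrays. Over these fits the log2 values ran from 3.39 to 4.53 on AF071225_at and from 1.90 to 2.52 on rc_AA818487_s_at. For Lox S66184_s_at they ran from 1.95 to 2.39. In the interaction 10 of 13 ligament fibroblast probe sets and 6 of 9 fibrillar collagen probe sets were called higher, with medians of 2.41 and 2.14. The part of that shift in the members' values was not tested. The number of member calls in the interaction was 1 without unloaded healing 2, loaded healing 2 or loaded control 2, and 2 without unloaded healing 1 or unloaded control 1.

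The rest of the pathway was sparsely covered. Of 17 tested probe sets for 9 genes of ER chaperones and disulfide isomerases limma called 0 in loaded healing against loaded control. It also called 0 in unloaded against loaded healing. The medians were 0.18 and 0.01, against -0.03 and 0.06 over all tested. Calls were rare over all tested probe sets too: 1.03% higher and 0.992% lower in the first comparison, 0.763% and 0.858% in the second. A list of 17 with no call is thus little different from the whole. The calcium-binding chaperone Calr read 2852.3 and 2724.8 in unloaded healing, 2944.8 and 2181.4 in loaded healing, 2524.4 and 1730.3 in unloaded controls, and 4096.4 and 2495.9 in loaded controls. Between unloaded and loaded controls 2 of the 17 were called lower, against 6.22% of all tested probe sets, namely the ER chaperones Hspa5 (log2 -2.54 ± 0.55) and Canx (-2.45 ± 0.46), and Canx rose in unloaded healing against unloaded control (2.20 ± 0.46). Canx was the 1 of the 17 called higher there, against 6.41% of all. In the interaction 0 of the 17 were called, against 4.52% higher and 0.324% lower of all. Of 4 tested probe sets for other collagen-modifying enzymes, 3 for ER export, 2 for procollagen proteinases, 2 for other crosslinking enzymes and 1 for ascorbate supply, 0 were called in any of the 6 comparisons. The 2 procollagen proteinase probe sets were both those of Mep1a, the only gene of that list tested, and the ascorbate gene was Gulo. At most 6.41% of all tested probe sets were called in any direction of a comparison, so lists this short say little. Loxl1, a lysyl oxidase relative best known for elastin, read 1255.7 and 200.1 in unloaded healing, 2744.0 and 2270.0 in loaded healing, 206.4 and 174.6 in unloaded controls, and 1343.5 and 784.9 in loaded controls. The 2 unloaded healing arrays lay far apart, and the log2 difference from loaded healing was -2.17 ± 0.65 (limma adjusted p = 0.190). Plod3, which also modifies collagen lysines, read 930.4 and 1248.6 in unloaded healing, 1242.2 and 1198.8 in loaded healing, 1444.9 and 1783.7 in unloaded controls, and 1291.1 and 1184.7 in loaded controls.

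Collagen chains are the substrate of these enzymes. Of 9 tested probe sets for fibrillar collagens 0 rose and 3 fell in unloaded against loaded healing, including Col1a2 (log2 -1.99 ± 0.19) and Col3a1 (-1.20 ± 0.23), where Pcolce rose. The median of the 9 was -0.92 there, and 0.763% of all tested probe sets were called higher and 0.858% lower. Between unloaded and loaded controls 7 of the 9 fell and 0 rose, against 6.22% lower and 0.591% higher of all. In unloaded healing against unloaded control 5 rose and 0 fell, against 6.41% higher and 1.05% lower of all. In loaded healing against loaded control 1 of the 9 fell, the Col1a1 probe set Z78279_at (-1.41 ± 0.22), and 0 rose. Of all tested probe sets 0.992% were lower and 1.03% higher there. Other Col1a1 probe sets were not called. Z78279_g_at read 18467.3 and 13522.2 in loaded healing and 17704.0 and 16920.5 in loaded controls. M27207mRNA_s_at read 84665.6 and 73916.0, and 75948.8 and 59573.3.

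By correlation of log2 signal over the 8 arrays, the genes most like Pcolce among 4166 probe sets with 1 symbol were Tpm4, a tropomyosin (r = 0.95), the proteasome subunit Psmb5 (0.95) and Cox7a2l (0.94). Those most like Ppib rc_AA818487_s_at were Psmb5 (0.97), the transcription factor Nfix (0.95) and the extracellular superoxide dismutase Sod3 (0.94). These values describe 8 arrays in 4 groups, so they mostly reflect the order of the group levels. Psmb5, near the top for both, read 455.7 and 521.9 in unloaded healing, 55.7 and 27.8 in loaded healing, 143.8 and 124.3 in unloaded controls, and 584.4 and 526.4 in loaded controls.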

How the data were processed

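RNA from medial collateral ligaments of rats was hybridised to 8 arrays, 2 in each of 4 groups, which the sample titles name. The authors deposited linear signal intensity per probe set, already scaled between arrays: the mean after trimming 2% at each end was 500.3 to 500.6 on every array. How the probes were summarised is not given in the sources used here, and the table holds no detection calls. Symbols were those of GEO's platform annotation: 7018 probe sets had 1 symbol, 308 several and 1473 none. Promoters came from RefSeq, build GRCr8. No columns were left unused (0).

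Log2 was taken of the signal plus 45.8. The 59 control probe sets and the dimmest 40% of the rest, by mean log2 value, were left out. All 8 arrays entered 1 fit with a coefficient for each group, made with limma 3.58.1 in R 4.3.3, with a variance prior that follows intensity (4 residual and 5.81 prior degrees of freedom). Tests were two-sided and adjusted by Benjamini-Hochberg within each of 6 contrasts, at 0.05. The model was tested on simulated data. The number of arrays limits the precision. The members and gene lists were chosen with earlier results of these data known. All member probe sets are reported. From each list up to 3 called probe sets, or the brightest where none was called, could be named. Alternatives were other normalizations, offsets, filters and variance priors, a replicate term and leaving out arrays.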

Additional observations from a re-analysis of the deposited data

Results flagged for a closer look

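By the interaction term of the limma model, the change of healing against control differed between unloaded and loaded rats for 4 probe sets. These were 4 of the 9 tested members, all called higher. Of all tested probe sets 4.52% were called higher and 0.324% lower in this term. The differences were 4.23 log2 units for Pcolce (adjusted p = 0.00239), 3.96 for Ppib AF071225_at (adjusted p = 0.0193), 2.21 for Ppib rc_AA818487_s_at (adjusted p = 0.0187) and 2.17 for Lox S66184_s_at (adjusted p = 0.0142). On the other tested Lox probe sets, S77494_s_at and rc_AI234060_s_at, the term read -0.48 and 0.78, and neither was called. The Ppib and Lox calls were each lost without some arrays. All 4 use the unloaded control arrays, on which ligament fibroblast markers summed to 8246 at most. Unloaded control rats had no sham operation and loaded control rats had one, so loading and sham surgery cannot be told apart in this term.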

How the results depend on the processing

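The number of member probe sets called depended on the processing. In loaded healing against loaded control it was 2, and 1 with quantile normalization, median centring, spike-in scaling, no offset, no filter or the unloaded controls left out, 0 with no intensity trend in the variance prior, and 0 to 1 with an array left out. In unloaded against loaded healing it was 1, 0 with no intensity trend, and 0 to 1 with an array left out. In unloaded healing against unloaded control it was 1, and 4 with quantile normalization, 4 with median centring, 2 with the offset 4 times as large, 3 with 60% removed, and 1 to 2 with an array left out. Between unloaded and loaded controls it was 2, and 3 with quantile normalization, 3 with median centring, and 1 to 2 with an array left out. In the interaction it was 4, 2 with spike-in scaling, where the Ppib call on rc_AA818487_s_at (adjusted p = 0.148) and the Lox call (0.165) were lost, and 1 to 3 with an array left out. The interaction count was 3 with 60% removed, a filter that left out Ppib AF071225_at. In unloaded healing against loaded control the number of member calls stayed 0 under the settings run. The cause of these differences was not tested. Over single probe sets and alternatives, 898 of 957 results were on the same side of the threshold, 46 lost and 13 gained a call, 0 called values changed sign, and 22 uncalled ones did.

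Spike-in scaling used 6 array control probe sets, those of BioC, BioDn and CreX, and left out BioB. On unloaded healing 1 and 2 the BioB-M probe set read 27208.1 and 761.0. BioC-5, among those used, read 15243.4 and 5968.1. This scaling moved the median of all tested probe sets to 0.34 for loaded healing against loaded control and to -0.40 for unloaded against loaded healing. Pcolce read -2.24 and 2.47 there and kept both calls (adjusted p = 0.0313 and 0.0167), but neither with no intensity trend (0.0648 and 0.0546). The split of all calls, higher to lower, was 54 to 52 for loaded healing against loaded control and 84 to 22 with that scaling, and 40 to 45 for unloaded against loaded healing and 18 to 119 with it. For the interaction it was 237 to 17, and 184 to 47 with spike-in scaling. With quantile normalization the split was 388 to 234 in place of 336 to 55 for unloaded healing against unloaded control, 205 to 386 in place of 31 to 326 between controls, and 251 to 80 in place of 237 to 17 for the interaction. In unloaded healing against loaded control 3 were called higher and 1 lower, 3 and 3 with quantile normalization, and 1 and 0 with median centring or spike-in scaling. The number of all calls was 106 for loaded healing against loaded control, and 64 with median centring, 70 with no filter, 29 with no intensity trend and 27 to 94 with an array left out. It was 85 for unloaded against loaded healing, and 42 with median centring, 137 with spike-in scaling, 16 with no intensity trend and 25 to 83 with an array left out. Quantile normalization gave 622 in place of 391 for unloaded healing against unloaded control, and 591 in place of 357 between controls.

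With a replicate block the number of member calls was 2 for loaded healing against loaded control, 1 for unloaded against loaded healing, 1 for unloaded healing against unloaded control, 2 between controls, 0 for unloaded healing against loaded control and 4 for the interaction, each as without it, and 123 of all probe sets were called in loaded healing against loaded control, in place of 106. The labels do not pair arrays by replicate. Deviations of same-numbered arrays correlated at 0.16 to 0.20, or 0.0008 to 0.014 with unloaded controls.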
